A study of Homo sapiens with 6 samples.

Results

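SERPINB2 was the gene of the serpin and plasminogen activator system that the deposited table held. Genes were chosen by symbol: every gene whose name starts with SERPIN, together with PLAU, PLAUR and PLAT. Of the 37 protein-coding genes with such a symbol in GENCODE release 29, 34 of them serpins, 1 was among the 1099 genes of the table. The authors listed only genes with a small p in their own comparison of the treated with the control libraries, so SERPINB2 was selected on the same contrast that is described here. Its difference between the groups is therefore given as a description, with no test. The level of the other 36 genes was not analysed here, and nothing about them follows from the table.

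PolyA RNA was sequenced from AGS, an established cell line of human gastric adenocarcinoma that the labels give as wild type. The cells received vehicle or SSD (saikosaponin D, a triterpenoid saponin from the root of Bupleurum) for 24 h, with 3 libraries in each group. The labels give a dose of 10 µM and the methods of the study a lower one, so the dose is not settled. The protocol fields of the labels also name a prostate line, C4-2B, and a compound called L14-8, and do not say whether that compound is SSD. All libraries came from 1 line without further modification, and the labels do not say whether replicates were separate cultures, so the spread between them may be technical.

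SERPINB2 encodes plasminogen activator inhibitor 2, a member of clade B of the serpins. Serpins inhibit serine proteases by offering a reactive loop as bait and trapping the protease after it cuts that loop. The plasminogen activators PLAU (urokinase, held at the cell surface by its receptor PLAUR) and PLAT (tissue-type activator) cut plasminogen into plasmin, which dissolves fibrin and helps to break down matrix. SERPINB2 inhibits both activators, is mostly kept inside the cell because it lacks a cleaved signal peptide, and is best known from monocytes, keratinocytes and placenta, where its mRNA can be induced strongly and turns over fast.

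SERPINB2 (ENSG00000197632) lies on the plus strand of chromosome 18, at chr18:63871692-63903890 of GRCh38 in GENCODE release 29, within a cluster of clade B serpins. Chromosome 18 carries 10 of the 34 serpin genes. Of the genes in this neighbourhood list (SERPINB3, SERPINB4, SERPINB5, SERPINB7, SERPINB10, SERPINB11, SERPINB12, SERPINB13, VPS4B, KDSR, BCL2 and PHLPP1), 0 of 12 were in the table. GENCODE gives SERPINB2 6 transcripts, of which 2 have an annotated stop codon. ENST00000457692 has 9 exons and 2155 bases, which equals the gene length the table gives, and ENST00000299502 has 8 exons and 1913 bases. SERPINB10, on the same strand, shares 547 of the 2748 exonic bases of SERPINB2 (19.9%), so reads from these bases cannot be assigned to one gene with certainty.

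The promoter of SERPINB2 is shown because the gene is known as a target of AP-1 (the FOS and JUN family of transcription factors). FOSL1, the AP-1 subunit that the table held, is described further on. The RefSeq window (GRCh38.p14, chr18:63887455-63887699, plus strand, 245 bases) ends just before the first base of ENST00000299502. Capitals mark the motifs found, and positions are counted from the RefSeq start at 63887705.

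SERPINB2 promoter: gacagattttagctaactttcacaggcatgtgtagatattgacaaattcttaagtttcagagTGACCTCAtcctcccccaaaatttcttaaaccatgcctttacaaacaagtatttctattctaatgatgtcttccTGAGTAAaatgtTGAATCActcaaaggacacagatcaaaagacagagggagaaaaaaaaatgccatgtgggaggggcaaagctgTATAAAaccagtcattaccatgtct

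Motifs were searched on both strands, and each share is that of all 35116 RefSeq promoter windows cut to the same length. A TATA box (TATAAA) started at position -30, and 10.6% of the windows held one. AP-1 binding site variants were found at -114 (TGAGTAA, in 2.17% of the windows) and -102 (TGAATCA, in 2.51%). A variant of the cAMP response element (TGACCTCA, in 1.79%) started at -188. The letters of the AP-1 consensus (TGACTCA, in 4.17%, the same site as TGAGTCA on the other strand), of the full cAMP response element (TGACGTCA, in 1.62%) and of the core of the xenobiotic response element (GCGTG, in 31.8%) did not occur in this window. These matches describe the letters and do not show binding.

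SERPINB2 had 9.68, 8.68 and 7.16 TPM (a read share corrected for gene length, which the authors scaled to the whole library) in vehicle replicates 1, 2 and 3. In SSD replicates 1, 2 and 3 it had 2.80, 2.78 and 4.38 TPM. All 3 SSD libraries lay below all 3 vehicle libraries, with 2.78 TPM between the lowest vehicle and the highest SSD library. SSD replicates 1 and 2 were nearly equal, and SSD replicate 3 stood above them. The group means were 8.51 TPM ± 1.27 (SD, n = 3) for vehicle and 3.32 TPM ± 0.918 (SD, n = 3) for SSD, which is 2.56-fold lower, or a change of -61.0%.

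These levels rested on few reads. The estimated counts of SERPINB2 were 189, 227 and 156 in vehicle replicates 1, 2 and 3. They were 50, 53 and 75 in SSD replicates 1, 2 and 3. The exact 95% Poisson intervals, which cover counting error only, ran from 6.08 to 11.2 TPM over the vehicle libraries and from 2.08 to 5.49 TPM over the SSD libraries. The interval of the highest SSD library was 3.45 to 5.49 TPM and that of the lowest vehicle library 6.08 to 8.38 TPM. The interval of SSD replicate 3 overlapped those of SSD replicates 1 and 2 (2.08 to 3.69 and 2.08 to 3.64 TPM).

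**Figure D1:**
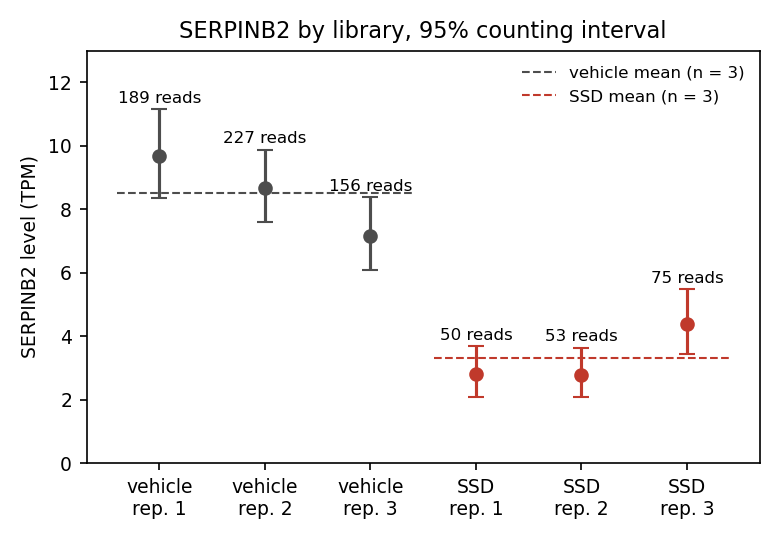
SERPINB2 in each library in TPM (points) with exact 95% Poisson counting intervals (bars), read counts above them and group means as dashed lines (n = 3 each). The SSD libraries sit between 2.78 and 4.38 TPM, all below the vehicle libraries at 7.16 to 9.68 TPM.

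The spread between libraries was wide for this table. The coefficient of variation of SERPINB2 was 14.9% among vehicle and 27.7% among SSD libraries, against medians over the table of 4.95% and 6.33%. The value under SSD was the 16th highest of the 1099 genes. The counting error of its reads was 6.64% to 8.01% in a vehicle library and 11.5% to 14.1% in an SSD library.

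SERPINB2 was a weakly expressed gene of the table and moved further down under SSD. Its vehicle level was the 102nd lowest of 1099, with 9.19% of the genes below it, and its SSD level the 24th lowest, with 2.09% below it. The median gene of the table had 53.9 TPM with vehicle and 53.5 TPM under SSD. By mean count (125 reads over the 6 libraries) SERPINB2 ranked 28th lowest.

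In the edgeR quasi-likelihood fit across the table, the log2 fold change of SERPINB2 (SSD over vehicle) was -1.40 (standard error 0.193). This was the second lowest of the 1099 genes, whose log2 fold changes ran from -1.48 to 0.904 with a median of -0.14, and 10 genes lay below -1. At an adjusted p under 0.05, this fit called 52.8% of all table genes lower, 35.2% higher and 88% in either direction. A full separation of the groups in TPM with SSD lower, as SERPINB2 showed, was found in 44.2% of the table genes. The table was selected for such differences, so no call is given for SERPINB2 and nothing is read from its place among them. Across 15 other settings its log2 fold change stayed between -1.64 and -1.15 and ranked from 1st to 6th lowest. The values nearest 0 came from log2(TPM + 1), where the pseudocount compresses low genes.

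**Figure D2:**
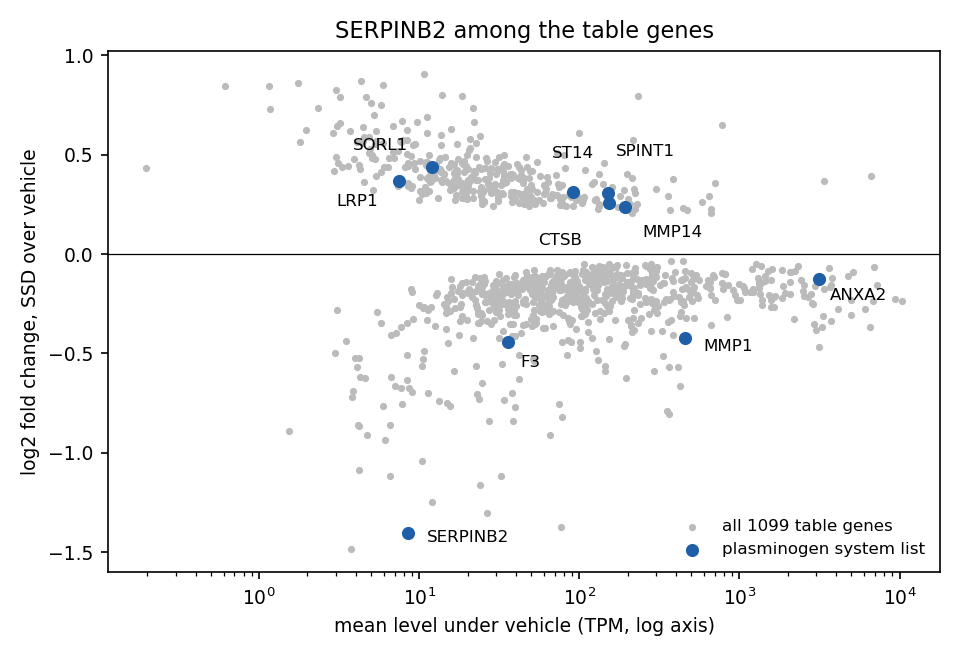
Log2 fold change of SSD over vehicle (vertical axis) against the mean vehicle level in TPM (horizontal log axis) for the 1099 table genes (grey) and the 10 genes of the plasminogen system list (blue). SERPINB2, at -1.40 and 8.51 TPM, lies apart from the other 9 list genes, which run from -0.44 to 0.44.

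The balance of directions among the called genes moved with the scale between libraries. Of the called genes, 60.0% were lower under SSD on the scale used here, which reflects all genes of a library, 48.0% with table totals, 42.5% with TMM and 37.5% with DESeq2 size factors. Only the lower calls changed in number, and 387 genes were called higher on each of these scales. The median log2 fold change of all table genes stayed below 0, at -0.14, -0.083, -0.065 and -0.045 in the same order. The log2 fold change of SERPINB2 was -1.35, -1.33 and -1.32 on the latter 3 scales. The table genes summed to between 3084337 and 4640114 estimated counts per library and held 30.1% to 33.1% of its TPM, so these sums are not the depth.

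A further measure, which the selection of SERPINB2 did not use, was its effective length. The ratio of its estimated count to its TPM follows the length at which its reads were divided, and each library's ratio was set against that library's median over the table genes, with the vehicle mean at 1. The relative effective length was 0.999, 1.002 and 0.999 in vehicle replicates 1, 2 and 3. It was 0.947, 0.985 and 0.970 in SSD replicates 1, 2 and 3. All SSD libraries were lower, by -3.29% in the mean, and the exact two-sided permutation test gave p = 0.1, the smallest that 3 against 3 libraries allow. A difference at least this large in either direction was found in 30.1% of the table genes. With table genes of at least 1000 mean counts as the reference, the difference was -5.18%. Against the whole-library scale, a reference chosen after seeing the data, SSD replicate 2 stood at 1.000, the groups overlapped, the difference was -2.96%, and p was 0.3 by the same exact test. The values spread more among the SSD libraries (SD 0.0192) than among the vehicle libraries (SD 0.0016), where the read counts were higher. These values therefore do not settle whether the transcripts of SERPINB2 differed in length between the groups. The study displayed SERPINB2 as a representative splicing event after SSD, from aligned reads, which these values cannot check.

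The wider plasminogen system list named 63 genes, of which the table held 10. Beside SERPINB2 these were 9 of 62, of which 3 were called lower and 6 higher by the quasi-likelihood test of edgeR, adjusted over the table by the Benjamini-Hochberg method. Over all table genes 52.8% were called lower and 35.2% higher. The median log2 fold change of these 9 was 0.26, against -0.14 over all table genes. Genes of this and the later lists entered the table through the same selection as SERPINB2. Their calls therefore describe a direction and are no independent evidence of a change. ST14 (matriptase, a membrane serine protease that can activate the urokinase precursor) had 88.76, 95.03 and 90.64 TPM with vehicle and 115, 121 and 103 TPM with SSD. Its log2 fold change was 0.31, and the groups did not overlap. SPINT1, a Kunitz-type inhibitor of matriptase and the other gene listed as an inhibitor that the table held, rose as well, from 150 TPM ± 7.43 to 185 TPM ± 13.8 (SD, n = 3), with a log2 fold change of 0.31.

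Of 7 listed receptors that clear plasminogen activators and their complexes with inhibitors, the table held LRP1 and SORL1, and both were higher. LRP1 had 7.0, 7.04 and 8.47 TPM with vehicle and 9.08, 10.3 and 10.3 TPM with SSD (log2 fold change 0.37). SORL1 had 11.7, 12.1 and 12.1 TPM with vehicle and 15.6, 16.3 and 17.0 TPM with SSD (log2 fold change 0.44). LRP1 was thus near the level of SERPINB2 under vehicle and above it under SSD. ANXA2, a plasminogen and tissue activator binding protein, was the most abundant gene of the list and went from 3141 TPM ± 39.4 to 2857 TPM ± 163 (SD, n = 3). Its log2 fold change of -0.13 lost its call in 9 of the 15 other settings.

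Genes at the edges of the system moved in both directions. F3, tissue factor, the trigger of coagulation, had 38.7, 31.4 and 37.1 TPM with vehicle and 24.2, 29.9 and 27.7 TPM with SSD (log2 fold change -0.44). The interstitial collagenase MMP1, whose precursor plasmin can activate, was lower too (log2 fold change -0.42, from 454 TPM ± 20.7 to 338 TPM ± 20.4, SD, n = 3). The membrane-bound protease MMP14 and the lysosomal protease CTSB were higher, with log2 fold changes of 0.24 and 0.26. None of these 9 genes changed by as much as SERPINB2, and none of their signs turned in the other settings.

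The table's own annotation placed SERPINB2 with 5 other genes in the complement and coagulation cascades. Beside SERPINB2, 4 of them were called lower and 1 higher, where 52.8% and 35.2% of all table genes were. C4BPB, a chain of a complement regulator in plasma, fell by 0.62 on the log2 scale, and CD55, a complement regulator on the cell surface, fell by 0.36. ENSG00000284969, which the table gives without a symbol, had a log2 fold change of -0.71. FGA, the fibrinogen alpha chain, went the other way, from 11.1, 11.4 and 11.1 TPM with vehicle to 19.9, 16.9 and 14.8 TPM with SSD (log2 fold change 0.61). SERPINB2 and FGA were the 2 table genes annotated to fibrinolysis. With the annotation of serine-type endopeptidase inhibitor activity, SERPINB2 stood beside SPINT1 and APLP2 (log2 fold change 0.22), a relative of the amyloid precursor protein with a Kunitz domain.

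Genes tied to pathways known to act on SERPINB2 in other cells were sparse in the table, and most are not known here as its direct regulators. Of 25 genes of the AP-1 and ERK response, 6 were present, 5 were called lower and 0 higher, with a median log2 fold change of -0.21 against -0.14 over all table genes, of which 52.8% were called lower and 35.2% higher. FOSL1, an AP-1 subunit, went from 63.7 TPM ± 3.36 to 55.9 TPM ± 1.48 (SD, n = 3), and its log2 fold change was -0.20, a call that was lost in 4 of 15 other settings. DUSP4, a phosphatase of MAP kinases, and MYC, a growth regulator, had log2 fold changes of -0.30 and -0.28 and kept their calls in all 15. IER3, an immediate early gene (-0.21), and SPRY4, an inhibitor of ERK signalling (-0.17), lost theirs in 1 and 9 settings. PHLDA1 was not called (log2 fold change -0.14), and its groups overlapped. For MYC, the study itself reported no significant change of the mRNA under SSD, by RNA-seq or by RT-qPCR. Yet MYC was in the table, which lists only genes with a small p in the authors' own comparison. The reason for this difference was not tested. None of the 10 genes for proteins that bind AU-rich elements, which govern the decay of short-lived mRNAs such as that of SERPINB2, was in the table.

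The aryl hydrocarbon receptor, a ligand-activated transcription factor under which SERPINB2 has been described as induced, had 4 of 10 list genes in the table, of which 3 were called lower and 1 higher, against 52.8% and 35.2% of all table genes. CYP1A1, its best known target, had a log2 fold change of -1.25 on counts. By TPM it changed by -45.8%, against -61.0% for SERPINB2, and limma gave -0.79 on log2(TPM + 1) and -0.87 on log2(TPM + 0.1). TIPARP, a repressor of the receptor, changed by -0.25 and AHR itself by -0.16 on the log2 scale, though the groups of AHR overlapped in TPM and its call was lost in 9 settings. NQO1, a target shared with the oxidative stress response, was higher (log2 fold change 0.29).

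SERPINB2 is a marker of differentiating keratinocytes, and 6 of 22 genes of squamous differentiation were in the table, with 5 called lower, 1 higher and a median log2 fold change of -0.70. Over all table genes the median was -0.14, with 52.8% called lower and 35.2% higher. This list, like the others, was written with earlier results of these data known, so its low median is not an independent result. KRT13, a keratin of moist squamous epithelia, had 23.7, 26.1 and 29.3 TPM with vehicle and 10.9, 11.1 and 10.3 TPM with SSD (log2 fold change -1.30). S100A2, a calcium-binding protein of basal epithelial cells, had a log2 fold change of -0.91. KRT6A (-0.86), KRT6B (-0.53) and KRT17 (-0.20, its call lost in 2 settings) were lower too, and reads of the near-identical KRT6A and KRT6B may have been split between them. LCN2, a secreted iron carrier, was higher (log2 fold change 0.80). In KRT6A, KRT6B and, barely, S100A2, as in SERPINB2, SSD replicate 3 was the highest SSD library and so the nearest to the vehicle libraries. In LCN2, which rose, SSD replicate 3 was also the highest and so the furthest from them. In KRT17 and KRT13 SSD replicate 2 was the highest, and in KRT13 SSD replicate 3 was the lowest.

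**Figure D3:**
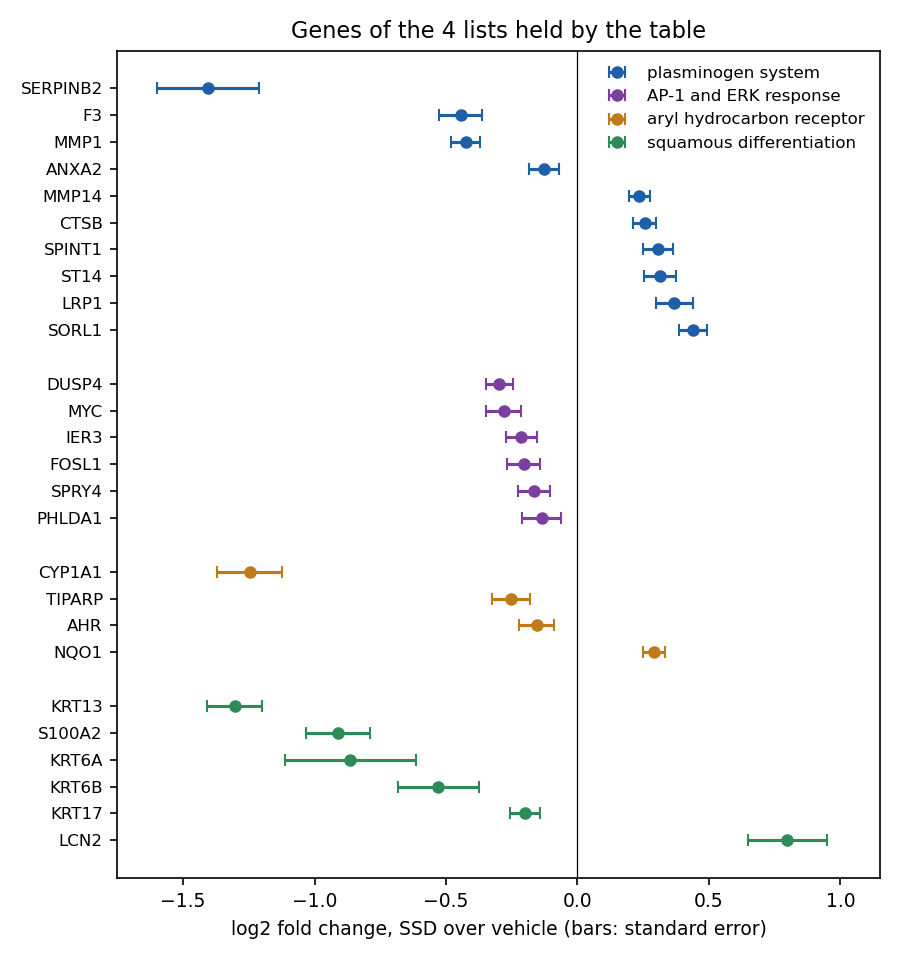
Log2 fold change of SSD over vehicle (points) with its standard error (bars, edgeR, n = 3 libraries a group) for all genes of the 4 lists that the table held, coloured by list. SERPINB2 at -1.40 and KRT13 at -1.30 are the lowest, and 8 genes lie above 0.

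The genes whose profiles over the 6 libraries were most like that of SERPINB2 were found by the root-mean-square distance between log2(TPM + 1) profiles, each centred on its own mean. The 5 nearest were LGALS7B (distance 0.152), LINC01411 (0.168), KRT81 (0.176), AQP1 (0.208) and CXCL8 (0.213), against a median distance of 0.556 over the table. Since the profile includes the difference between the groups, nearness to SERPINB2 mostly picks genes with a similar fall. LGALS7B, a galectin of stratified epithelia, had 32.2, 31.5 and 33.1 TPM with vehicle and 12.8, 13.5 and 21.0 TPM with SSD, and its reads may be shared with the near-identical LGALS7. The non-coding LINC01411 had 6.28, 7.10 and 6.41 TPM with vehicle and 2.56, 2.52 and 4.12 TPM with SSD, on a mean of 63 reads. In both, as in SERPINB2, SSD replicate 3 stood above SSD replicates 1 and 2. The distance covered all 6 libraries, so this likeness was part of how both genes were picked.

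The keratin KRT81, whose reads may be shared with related hair keratins, went from 24.1 TPM ± 0.542 to 10.8 TPM ± 1.495 (SD, n = 3). CXCL8, the chemokine interleukin-8, had 38.8, 38.0 and 38.8 TPM with vehicle and 16.9, 20.3 and 28.1 TPM with SSD. AQP1, a water channel, had the lowest log2 fold change of the table (-1.48) and near-equal SSD libraries at 1.34, 1.23 and 1.34 TPM. SSD replicate 3 was the highest SSD library in 211 of the 486 genes with all SSD libraries below all vehicle libraries, SSD replicate 1 in 172 and SSD replicate 2 in 101, with 2 ties. Without SSD replicate 3, the log2 fold change of SERPINB2 was -1.64. The RefSeq promoter windows used here included none for KRT81. Those of LGALS7B, LINC01411 and CXCL8 held the AP-1 consensus TGACTCA, as did 4.17% of all windows. Those of AQP1 and CXCL8 held the TATA box, as did 10.6%. The window of SERPINB2 lacked that consensus, and a shared factor was not tested.

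The markers of the labelled cells were mostly outside this selected table, so it can hardly check the labels. Of 8 markers of gastric epithelium and AGS cells only TFF1, a trefoil peptide of gastric mucus, was present, and it was lower under SSD (74.3 TPM ± 6.28 against 46.5 TPM ± 11.4, SD, n = 3). Of the 5 markers of prostate cells and the 5 of macrophages, the latter a known source of SERPINB2, the table held 0 each. Of 5 fibroblast markers it held COL1A1 (log2 fold change -0.25, with groups that overlapped in TPM) and VIM (0.75). VIM went from 5.73 TPM ± 1.62 to 10.6 TPM ± 1.46 (SD, n = 3). The part of these marker genes in the level of SERPINB2 was not tested. In bulk RNA, fewer cells that express SERPINB2 and less of its RNA per cell cannot be told apart.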

How the data were processed

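RNA-seq of AGS cells under vehicle (n = 3) and SSD (n = 3) was read from 1 deposited table. The authors computed its estimated counts, of which 33.5% are not whole, and its TPM on a commercial cloud platform. The aligner and counting program are not given in the sources used here, and the submitters' processing notes name the build GRCh38.p13. The table also holds the authors' fold changes and p-values, which were not used, and lists only genes with a small p in that comparison. Columns were matched to samples by cell line, control or treated name and replicate number.

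Estimated counts were rounded and tested with edgeR 4.0.16's quasi-likelihood test (R 4.3.3) after filterByExpr, which kept all 1099 genes, with Benjamini-Hochberg adjustment over these genes and calls at an adjusted p under 0.05. In a preselected table such adjusted p are too small for the genes as a whole. Library sizes came from the median ratio of count to TPM over the table genes, since TMM assumes mostly unchanged genes. Alternatives were TMM, DESeq2 size factors, table totals, the Wald test of DESeq2 1.42.0, limma 3.58.1 on log2 of TPM with a pseudocount of 1 or of 0.1, no filter or a mean of at least 100 counts, a replicate block, and each library left out. The code was tested on simulated data. Permutation tests, intervals and distances used Python 3.11.15 with scipy 1.17.1. Each gene of the lists found in the table was named, with the 5 nearest profiles. The members and lists were chosen with earlier results of these data known. P-values set a difference only against the spread between these libraries.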

Additional observations from a re-analysis of the deposited data

How the results depend on the processing

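Of the 1099 table genes, 967 were called, 580 lower and 387 higher under SSD. The lower calls numbered 286 with TMM, 232 with DESeq2 size factors and 357 with table totals, and DESeq2 size factors gave 619 calls in all. The 24 calls among list genes other than SERPINB2 (16 lower, 8 higher) fell to 10 lower ones with DESeq2 size factors. Leaving out each library in turn gave 778 to 1011 calls, 391 to 624 lower and 387 higher. Among list genes it gave 20 to 24 calls, 12 to 16 lower and 8 higher. The constant numbers of higher calls are not read as stability, since the table was selected for genes with a small p. Without 1 library the log2 fold change of SERPINB2 ran from -1.64 (SSD replicate 3) to -1.28 (SSD replicate 1), its TPM difference (-5.19 with all libraries) from -5.86 to -4.60, and its effective length difference from -4.17% to -2.26%. That difference was -5.18% with reference genes of at least 1000 counts; the cause was not tested.

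Same-numbered libraries did not deviate together (correlations of -0.23, -0.0092 and -0.032). These values gave no sign that the numbers pair them but cannot exclude it, and the labels do not say. With the replicate block, 903 genes were called (516 lower, 387 higher), 22 of them list genes (14 lower), and the log2 fold change of SERPINB2 was -1.41. At 50 to 227 reads a library, SERPINB2 carries a counting error of 6.64% to 14.1%, which limits any statement on differences between libraries of 1 group.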

Other observations

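SERPINB2 shares broader annotation with other genes of the table. Under negative regulation of the apoptotic process, a role ascribed to SERPINB2 in several cell types, the table held 33 genes, of which 22 were called lower, 8 higher and 3 neither, with a median log2 fold change of -0.17 against -0.14 over all table genes. Under extracellular space it held 70 genes (41 lower, 25 higher), and under wound healing 6 (3 lower, 2 higher). These counts include SERPINB2. Calls are those of edgeR's quasi-likelihood test at an adjusted p under 0.05, in a table where 52.8% of the genes were called lower and 35.2% higher.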
